A study of Mus musculus with 6 samples.

Results

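Proteoglycans are core proteins that carry long sulfated sugar chains, such as heparan sulfate or chondroitin sulfate. The transcripts examined here encode 25 core proteins of proteoglycan families, 17 enzymes that make or edit the chains or make hyaluronan, and 2 hyaluronan receptors. These 44 genes were taken by symbol from the 28043 gene rows of each table, and every symbol was found. RNA came from mouse eyes: primary retinal pigment epithelium (RPE) cells, the pigmented layer behind the photoreceptors, were taken from mice with proliferative vitreoretinopathy (PVR, 3 libraries) and from normal mice (Normal, 3 libraries). PVR is a scarring disorder in which cells grow into contractile membranes on and under the retina, and the series title calls it traumatic. No genotype, strain, age, sex, time after injury or method of induction is given in the sample labels used here for either group. Nothing in them says that the libraries of a group came from separate animals, and the p-values given here therefore speak of library-to-library spread, possibly technical, and of nothing wider.

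Heparan sulfate chains are built on a serine of the core protein by a short linker, a copolymerase and a set of sulfotransferases in the Golgi, and their sulfation pattern decides which growth factors, chemokines and matrix proteins they hold. After secretion the pattern can still be edited, since extracellular sulfatases remove sulfate groups and heparanase cuts the chain. Hyaluronan is a related polymer with no core protein and no sulfate, made at the plasma membrane and bound by large chondroitin sulfate proteoglycans and by cell surface receptors. In the eye these molecules fill the basement membrane under the RPE, the interphotoreceptor matrix and the vitreous.

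Values are read counts per gene that the authors had divided by a size factor per library, here called normalised counts, and libraries held 15269983 to 19173187 reads. Changes are differences of log2(normalised count + 1), PVR minus Normal, given with their standard errors (SE), and this scale makes the change of a gene with few reads look smaller than it was. A gene is called higher or lower where limma gave a Benjamini-Hochberg adjusted p under 0.05 over the 15766 genes tested. The RPE identity of both groups was plain, with visual cycle genes such as Rpe65 at 28403, 28578 and 38343 normalised counts in PVR replicates 1 to 3 and 88531, 82848 and 89000.0 in Normal replicates 1 to 3, and 6 of 11 RPE markers were lower in PVR. Markers of other cell types were also present. Of 16 macrophage and microglia markers 15 were higher and 1 was lower (Csf1r), with summed levels of 36029 to 89792 in PVR and 10691 to 12141 in Normal, where Csf1r alone gave 9343, 9591 and 11181. Of 10 fibroblast and stromal markers 6 were higher (summed 11434 to 17918 in PVR and 2939 to 6167 in Normal), of 10 cell cycle genes 7 were higher and 1 lower (1259 to 2131 in PVR and 652 to 704 in Normal), and of 6 glial markers that could be tested 1 was higher. None of the macrophage, fibroblast or cell cycle markers was at 0 throughout a group. The part of these cells in the changes given below was not tested, and in bulk RNA fewer cells of a type and less RNA per cell cannot be told apart.

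Of the 44 genes, 22 were higher in PVR, 19 were tested and not called, and 3 had too few reads to be tested (Acan, Ncan and Gpc2). No gene of the 44 was called lower by limma, against 2 with the replicate number as a block and 1 with edgeR or DESeq2, and 2 had an unadjusted p under 0.05 with a negative change (Sdc2 and Cspg4). Among all genes tested 17.9% were called higher and 12.9% lower, 30.8% in either direction. The PVR values lay wholly above the Normal values for 24 of the 41 tested members and wholly below for 1, against 24.7% and 23.3% of all genes tested. The median log2 change was 0.94 over the 41 members and -0.02 over all genes tested. Because 4 members passed the filter on low counts through their PVR libraries alone (Hs3st1, Hs6st2, Has2 and Hmmr), a tilt toward higher values is built in for them, and without them 19 of 37 were higher. By class, 12 of 25 core protein genes (22 tested, median log2 change 1.001) and 8 of 17 enzyme genes (median 0.90) were higher. Of those 4 genes 3 are enzyme genes (Hs3st1, Hs6st2 and Has2), and without them 6 of 14 enzyme genes were higher with a median of 0.60, while the core protein values stay as given. No test of the difference between these lists was made.

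**Figure D1:**
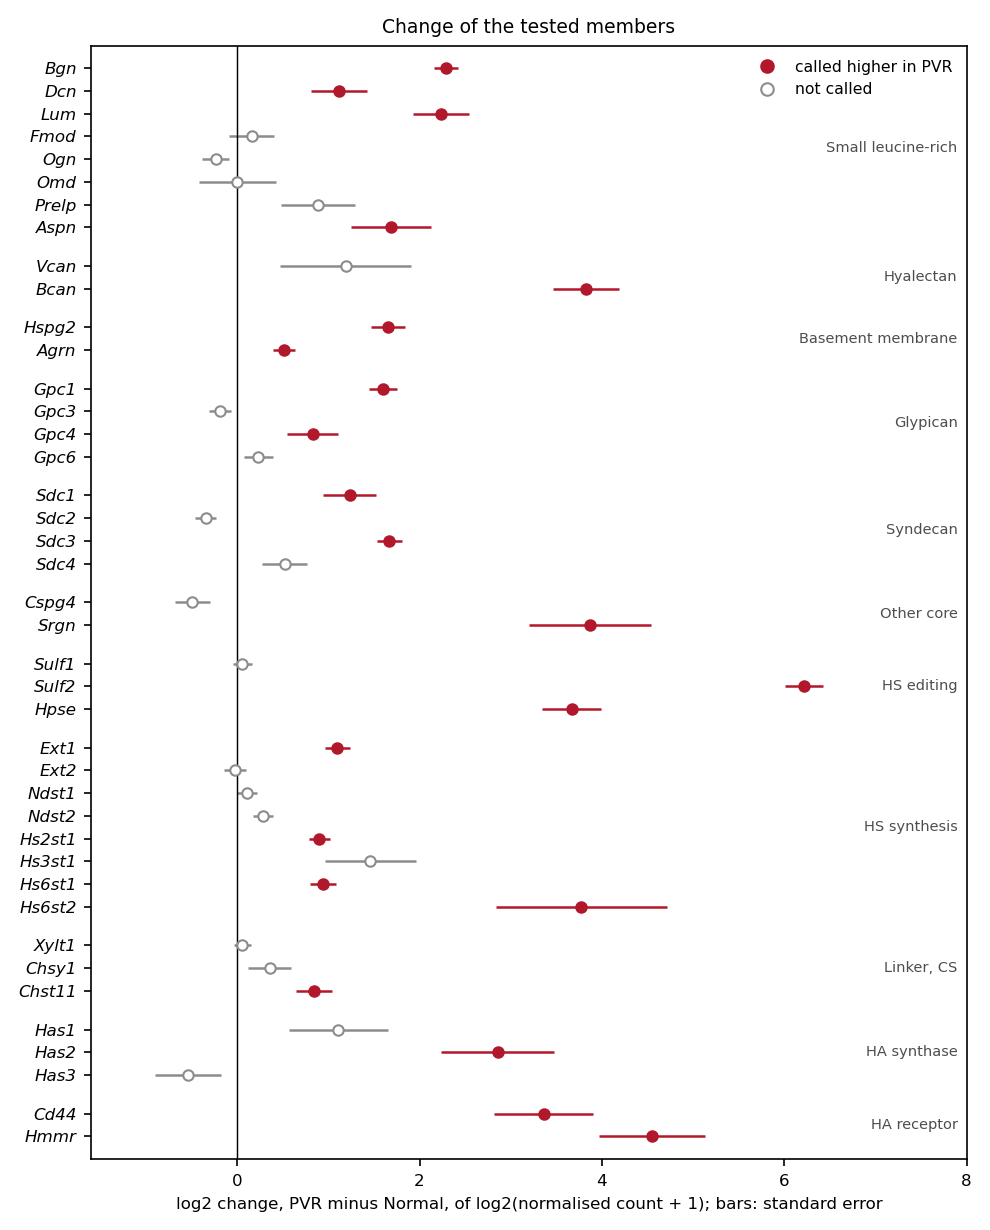
Log2 change (PVR minus Normal, of log2(normalised count + 1), horizontal axis) of the 41 tested members, grouped by role down the page, with bars for the standard error over 3 PVR and 3 Normal libraries; HS is heparan sulfate, CS chondroitin sulfate and HA hyaluronan. Filled red points mark the 22 genes called higher, led by Sulf2 at 6.21, and open grey points the 19 that were not called, which run from -0.54 (Has3) to 1.46 (Hs3st1).

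The largest difference among the members lay in the extracellular editing of heparan sulfate. Sulf2 encodes a secreted sulfatase that removes 6-O-sulfate groups from chains outside the cell (chromosome 2, 166073089 to 166155663 on GRCm38, minus strand). It had 3157, 4377 and 3459 normalised counts in PVR replicates 1 to 3 and 41.2, 66.7 and 39.9 in Normal replicates 1 to 3. Every PVR library thus held far more Sulf2 than any Normal library, and the ratio of the group means was 74.4 (log2 change 6.21 ± 0.21 SE, limma adjusted p = 1.86e-06). Hpse encodes heparanase, the endoglycosidase that cuts heparan sulfate chains (chromosome 5, 100679484 to 100719716, minus strand). It had 578, 897 and 369 normalised counts in the PVR libraries and 41.2, 58.3 and 36.3 in the Normal libraries, with no overlap (log2 change 3.67, SE 0.32, limma adjusted p = 0.000151). Beside both genes, the macrophage marker sum was 63371, 89792 and 36029 in PVR replicates 1 to 3. In Normal replicates 1 to 3 the sum was 11325, 10691 and 12141. Most of each Normal sum was Csf1r, which was lower in PVR, while 15 of the 16 markers were higher. The sum therefore understates the rise of those 15 markers. The part of macrophages in the change of Sulf2 or Hpse was not tested.

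Sulf1, the other extracellular sulfatase (chromosome 1, 12692277 to 12861192, plus strand), was already abundant in normal RPE. It had 16205, 16877 and 15033 normalised counts in PVR replicates 1 to 3 and 14431, 15325 and 16507 in Normal replicates 1 to 3, and the groups overlapped. Its log2 change was 0.06 with a 95% interval of -0.18 to 0.30, which does not reach the change of Sulf2, and scaling to library totals gave it a negative sign (-0.0170). Per kilobase of exon, Sulf2 made up 27.3%, 33.3% and 30.7% of the summed level of this sulfatase pair in PVR replicates 1 to 3, and 0.547%, 0.830% and 0.463% in Normal replicates 1 to 3. The summed level per kilobase of the pair was 2044 ± 171 in PVR and 1374 ± 91.9 in Normal (SD, n = 3 each). Within-library shares do not depend on the scaling between libraries. They do depend on the exon length used, and with the longest transcript of each gene the mean Sulf2 share was 21.8% in PVR and 0.390% in Normal.

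The promoters of Sulf2 and Hpse are shown because these are the editing genes that rose, Sulf2 with the largest change of any tested member and with separate annotated starts close together. Each window runs from 250 bases before to 50 bases after a RefSeq start (GRCm38.p6), is written 5′ to 3′ on the strand of the gene, and has in capitals each GGAAA on either strand (so GGAAA or TTTCC), the core that NFAT factors recognise and of interest because the series title names NFATc1. The windows lie at chr2:166155236-166155535 and chr2:166155634-166155933 (Sulf2, minus strand) and at chr5:100719667-100719966 (Hpse, minus strand).
Sulf2 window 1: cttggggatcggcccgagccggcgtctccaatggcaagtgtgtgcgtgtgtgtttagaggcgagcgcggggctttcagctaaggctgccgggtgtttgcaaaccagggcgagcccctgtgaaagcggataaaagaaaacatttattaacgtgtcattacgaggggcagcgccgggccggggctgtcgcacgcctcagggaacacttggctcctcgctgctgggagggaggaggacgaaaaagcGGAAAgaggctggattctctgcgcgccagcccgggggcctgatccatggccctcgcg
Sulf2 window 2: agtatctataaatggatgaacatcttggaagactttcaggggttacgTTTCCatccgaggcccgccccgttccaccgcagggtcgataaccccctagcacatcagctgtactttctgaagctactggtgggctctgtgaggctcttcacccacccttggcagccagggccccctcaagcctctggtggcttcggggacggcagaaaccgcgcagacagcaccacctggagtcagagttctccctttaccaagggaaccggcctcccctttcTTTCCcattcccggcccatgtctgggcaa
Hpse: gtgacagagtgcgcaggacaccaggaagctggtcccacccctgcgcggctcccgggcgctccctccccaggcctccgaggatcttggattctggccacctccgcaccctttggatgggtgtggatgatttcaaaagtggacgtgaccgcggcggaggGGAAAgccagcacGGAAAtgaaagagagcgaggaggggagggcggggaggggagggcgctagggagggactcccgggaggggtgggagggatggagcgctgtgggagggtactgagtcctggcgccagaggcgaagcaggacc
The first Sulf2 window held 1 match and 26 CpG dinucleotides, the second 2 matches and 12 CpG, and the Hpse window 2 matches and 19 CpG, against a median of 7 CpG over all 32851 windows. A GGAAA match is common, being present in 61.3% of all windows, in 15 of 21 windows of members that were higher and in 9 of 13 windows of tested members that were not called. The AP-1 motif TGANTCA (either strand, N any base) was in 7.81% of all windows and in none of those 21 and 13 windows. The TATA box letters TATAAA (either strand) were in 13.6% of all windows, in 4 of the 21 and 1 of the 13. No motif contains another, windows of the same gene are not independent, and 33 of the 44 members had a window. Matches describe letters in a window and show neither binding nor regulation.

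Among the genes that build heparan sulfate, 4 of 8 were higher in PVR (Ext1, Hs2st1, Hs6st1 and Hs6st2) and none was lower. The shares over all genes tested were 17.9% and 12.9%. Hs3st1 and Hs6st2 passed the filter on low counts through their PVR libraries alone. Without them 3 of 6 were higher, and the median log2 change was 0.59, against 0.92 with them. Ext1 and Ext2 encode the subunits of the copolymerase that extends the chain. Ext1 had 926, 759 and 669.6 normalised counts in PVR replicates 1 to 3 and 366, 338 and 385 in Normal replicates 1 to 3, without overlap (log2 change 1.10, SE 0.14, limma adjusted p = 0.000434). Ext2 had 922, 1072 and 1111 in PVR and 1051, 926 and 1178 in Normal, overlapping groups with a log2 change of -0.02 (95% interval -0.30 to 0.26). The Ext1 to Ext2 ratio per kilobase within a library was 0.911, 0.642 and 0.547 in PVR replicates 1 to 3 and 0.316, 0.331 and 0.297 in Normal replicates 1 to 3. These are values of a pair picked after the levels were seen, and they carry no test.

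Sulfation of the chain is begun by the N-deacetylase/N-sulfotransferases encoded by Ndst1 and Ndst2. Ndst1 averaged 2382 ± 102 normalised counts in PVR and 2218 ± 254 in Normal (SD, n = 3 each), and its log2 change of 0.11 had a 95% interval of -0.14 to 0.35. Ndst2 averaged 489 ± 24.4 in PVR and 402 ± 23.2 in Normal; the groups did not overlap, but the adjusted p was 0.0864. Hs2st1, the 2-O-sulfotransferase, had 2295, 2157 and 1756 normalised counts in the PVR libraries and 1068, 1117 and 1119 in the Normal libraries (log2 change 0.90, SE 0.12, limma adjusted p = 0.000524). Hs6st1 and Hs6st2 encode 6-O-sulfotransferases, which add the group that the extracellular sulfatases remove. Hs6st1 had 967, 880.4 and 704 in PVR and 391, 454 and 479 in Normal (log2 change 0.94, SE 0.14, limma adjusted p = 0.00108). Hs2st1 and Hs6st1 were thus higher in each PVR library than in any Normal library.

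Hs6st2 had 59, 94 and 44 reads in PVR replicates 1 to 3 and was rare in Normal, where replicates 1 to 3 held 0, 9 and 12 (log2 change 3.77, SE 0.94, limma adjusted p = 0.0196). Its call was lost without PVR replicate 1 or 2 and with no filter (adjusted p 0.0539 to 0.0702). Hs3st1, whose 3-O-sulfotransferase makes the antithrombin-binding form of the chain, rested on similarly few reads, 25, 21 and 21 in PVR and 6, 17 and 5 in Normal. It missed the threshold (limma adjusted p = 0.0511) and passed it under 6 of 17 alternatives, among them the replicate number as a block (adjusted p = 0.0431).

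Of 3 enzymes of the linker and of chondroitin sulfate, 1 rose, against 17.9% of all genes tested. Xylt1, the xylosyltransferase that puts the first sugar on the core protein, averaged 1366 ± 70.3 normalised counts in PVR and 1312 ± 31.3 in Normal (SD, n = 3 each), with a 95% interval of the log2 change of -0.15 to 0.27. Its small positive change (0.06) turned negative under scaling to library totals. Chsy1, a chondroitin synthase, averaged 118 ± 26.97 in PVR and 91.5 ± 16.1 in Normal and was not called. Chst11, a chondroitin 4-O-sulfotransferase, rose, with 1089, 768 and 691 normalised counts in PVR replicates 1 to 3 and 378, 474 and 560.1 in Normal replicates 1 to 3 (log2 change 0.84, SE 0.20, limma adjusted p = 0.0126).

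**Figure D2:**
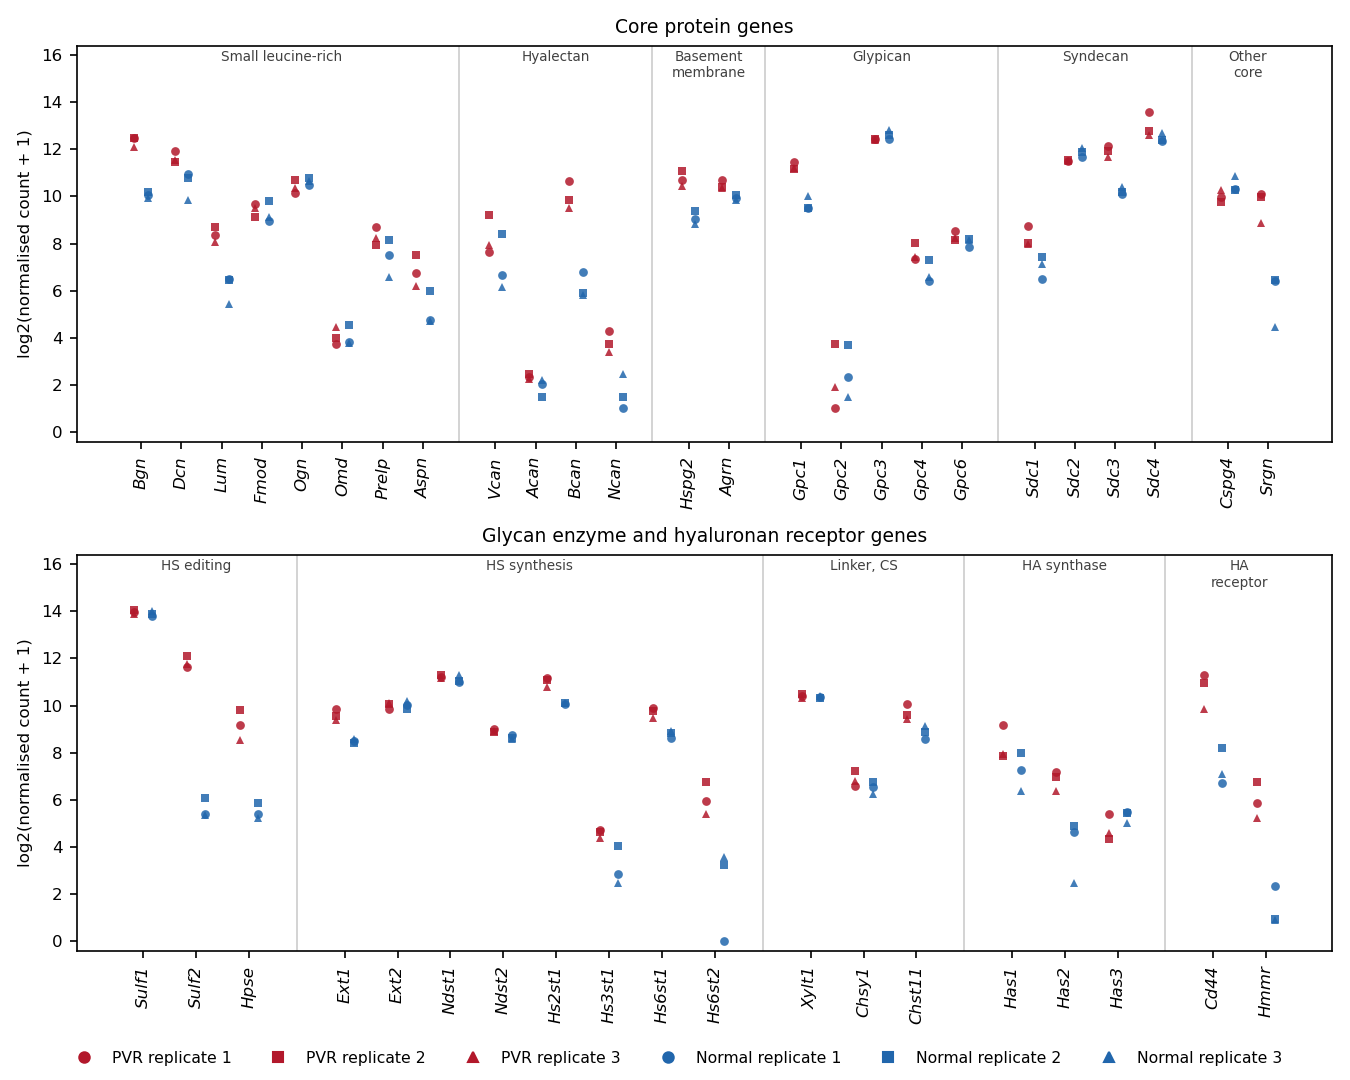
Level of each of the 44 members in each library as log2(normalised count + 1) (vertical axis), with PVR in red left of Normal in blue and a symbol shape for each replicate number; the upper panel holds 25 core protein genes and the lower panel 17 enzyme and 2 receptor genes. Points of the groups stand fully apart for Sulf2, Hpse, Bcan, Srgn and Cd44, and overlap for Sulf1, Ext2, Gpc3 and Sdc4.

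Turning to the core proteins, the cell surface syndecans split by member. Syndecans are transmembrane heparan sulfate proteoglycans that act as co-receptors, and Sdc3, best known from neurons, had 4475, 3899 and 3258 normalised counts in PVR replicates 1 to 3 and 1111, 1175 and 1353 in Normal replicates 1 to 3 (log2 change 1.67, SE 0.13, limma adjusted p = 5.63e-05). Sdc1, the main syndecan of many epithelia and of plasma cells, was much rarer and also rose, with 430.4, 257 and 254 in PVR and 88.6, 173 and 139 in Normal (log2 change 1.23, SE 0.29, limma adjusted p = 0.0125). Sdc2 went the other way in value: it had 2911, 3023 and 2899.5 in PVR and 3228, 3792 and 4271 in Normal, with every PVR library under every Normal library. Its log2 change of -0.34 (95% interval -0.61 to -0.08) just missed the threshold at a limma adjusted p of 0.0503, and it passed under 10 of 17 alternatives, among them the replicate block (adjusted p = 0.0377). Sdc4, a focal adhesion syndecan and the most abundant of the family, had 12178, 7064 and 6304 in PVR and 5181, 5417 and 6549.9 in Normal. PVR replicate 1 stood far above the other libraries, the groups overlapped, and Sdc4 was not called (limma adjusted p = 0.148), although DESeq2 called it (adjusted p = 0.0368).

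As shares of summed syndecan level per kilobase of exon, Sdc4 averaged 67.01% ± 5.998 in PVR and 63.2% ± 1.36 in Normal (SD, n = 3 each). Sdc3 averaged 13.5% ± 1.75 in PVR and 5.72% ± 0.145 in Normal, and Sdc2 averaged 17.8% ± 4.44 in PVR and 30.05% ± 1.13 in Normal. The Sdc3 to Sdc2 ratio per kilobase was 0.905, 0.760 and 0.662 in PVR replicates 1 to 3 and 0.203, 0.182 and 0.187 in Normal replicates 1 to 3.

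Glypicans, heparan sulfate proteoglycans held on the membrane by a lipid anchor, also differed by member, with 2 of 4 tested genes higher. The share over all genes tested was 17.9%. Gpc1 had 2799.8, 2294 and 2353 normalised counts in PVR replicates 1 to 3 and 736, 719 and 1026 in Normal replicates 1 to 3 (log2 change 1.60, SE 0.15, limma adjusted p = 0.000119). Of its exon bases 18.9% are shared with Ankmy1 on the opposite strand, and since the use of strand in counting is not given, Gpc1 is uncertain to that extent. Gpc3, the most abundant glypican and a regulator of hedgehog and Wnt ligands, had 5579, 5552 and 5342 in PVR and 5535, 6155 and 7186 in Normal. These groups overlapped, and the log2 change was -0.19 (95% interval -0.45 to 0.07). Gpc3 and Gpc4 are neighbours on chromosome X. Gpc4, far rarer, had 159.6, 259.7 and 170.0 in PVR and 83.5, 157 and 94.3 in Normal, and its call was marginal (log2 change 0.83, limma adjusted p = 0.0488), lost under 10 of 17 alternatives. Gpc6 averaged 316 ± 49.4 in PVR and 268 ± 33.4 in Normal and was not called. Gpc2 had 1, 11 and 3 reads in PVR and 4, 13 and 2 in Normal, too few to be tested. In share of the summed glypican level per kilobase, Gpc1 averaged 18.2% ± 1.56 in PVR and 6.17% ± 0.629 in Normal, while Gpc3 averaged 77.1% ± 1.13 in PVR and 90.5% ± 0.213 in Normal (SD, n = 3 each).

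**Figure D3:**
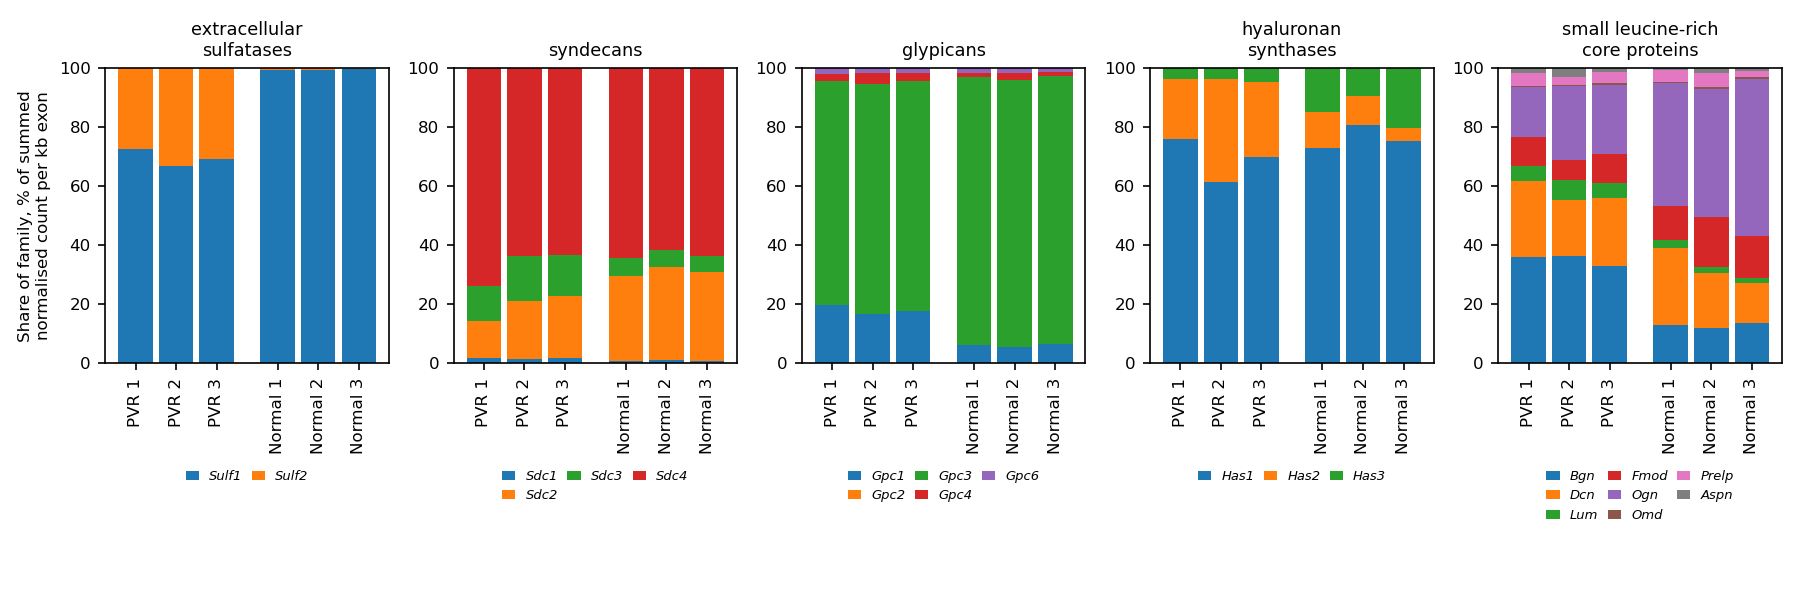
Composition of 5 gene families in each library, as the percentage of the family's summed normalised count per kilobase of exon (vertical axis), with the 3 PVR libraries left of the 3 Normal libraries in each panel. Sulf2 averages 30.4% ± 3.02 in PVR and 0.613% ± 0.193 in Normal of the sulfatase pair, and Bgn averages 35.05% ± 1.91 in PVR and 12.9% ± 0.911 in Normal of the small leucine-rich core proteins (SD, n = 3 each).

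Both basement membrane members, Hspg2 and Agrn, rose. Hspg2 encodes perlecan and had 1669, 2163 and 1411 normalised counts in PVR replicates 1 to 3 and 528, 674 and 457 in Normal replicates 1 to 3 (log2 change 1.65, SE 0.19, limma adjusted p = 0.000408). Agrn encodes agrin, known from the neuromuscular junction and present in the basement membrane under the RPE, and had 1656, 1347 and 1299.6 in PVR and 989, 1075 and 927 in Normal (log2 change 0.52, SE 0.12, limma adjusted p = 0.00977). Neither pair of groups overlapped, and both calls held under all 17 alternatives. Col18a1, a further basement membrane heparan sulfate proteoglycan gene that is not among the 44, had 12018, 8308 and 12748 in PVR and 12580.2, 15158 and 14979 in Normal, overlapping groups, and was not called (log2 change -0.39, 95% interval -0.76 to -0.01, limma adjusted p = 0.108).

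Small leucine-rich proteoglycans bind collagen fibrils and growth factors, and 4 of the 8 genes rose (Bgn, Lum, Aspn and Dcn). Over all genes tested 17.9% were higher. Bgn, which encodes biglycan (chromosome X, 73483602 to 73495933), had 5719, 5638 and 4377 normalised counts in PVR replicates 1 to 3 and 1059.5, 1171 and 974 in Normal replicates 1 to 3 (log2 change 2.29, SE 0.13, limma adjusted p = 1.06e-05). Lum, which encodes the corneal and fibrous tissue keratan sulfate proteoglycan lumican, had 333, 415 and 268 in PVR and 90.7, 87.98 and 42.6 in Normal (log2 change 2.24, SE 0.31, limma adjusted p = 0.000858). Every PVR library lay above every Normal library for both genes. Dcn, which encodes decorin, a binder of TGF-beta, had 3943, 2833 and 2957 in PVR and 1991, 1746 and 928 in Normal, and PVR and Normal came closest there between Normal replicate 1 and PVR replicate 2. Its call (log2 change 1.12, limma adjusted p = 0.0358) was lost without any single PVR library, with no filter, with scaling to library totals and without Normal replicate 2 and PVR replicate 3 together (adjusted p 0.0642 to 0.119). Aspn, which encodes asporin, had 107, 185 and 73.7 in PVR and 25.8, 62.98 and 25.4 in Normal (log2 change 1.68, limma adjusted p = 0.0192). Leaving out PVR replicate 1 or 2, or Normal replicate 1 or 3, ended that call (adjusted p 0.0524 to 0.0766).

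The remaining 4 small leucine-rich genes were not called. Ogn, which encodes osteoglycin and was the most abundant of the family per kilobase in Normal, had 1145, 1639 and 1308 normalised counts in PVR replicates 1 to 3 and 1412, 1785 and 1591 in Normal replicates 1 to 3 (log2 change -0.24, 95% interval -0.56 to 0.09). Fmod, which encodes fibromodulin, averaged 704 ± 135 in PVR and 645 ± 218 in Normal (SD, n = 3 each), and Omd, which encodes osteomodulin, averaged 15.98 ± 4.33 in PVR and 16.1 ± 5.31 in Normal. Prelp averaged 319.5 ± 83.8 in PVR and 186 ± 94.2 in Normal and was called only where Normal replicate 2, the highest Normal library (282), was left out (adjusted p 0.0174 and 0.0401). Several of these genes are neighbours: Aspn, Omd and Ogn lie on chromosome 13 (49544443 to 49624501), where Aspn was called and the other pair was not, and Dcn and Lum lie on chromosome 10 (97479609 to 97572703), where both were called. In share of the family per kilobase, Bgn averaged 35.05% ± 1.91 in PVR and 12.9% ± 0.911 in Normal, whereas Ogn averaged 21.9% ± 4.22 in PVR and 46.1% ± 6.21 in Normal (SD, n = 3 each). Of the fibroblast and stromal markers 6 of 10 were higher in the same libraries, and the part of such cells in these changes was not tested.

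The large hyaluronan-binding proteoglycans, or hyalectans, were led by Bcan. Bcan encodes brevican, a chondroitin sulfate proteoglycan of the matrix around neurons (chromosome 3, 87987531 to 88000230). It had 1603, 917 and 723 normalised counts in PVR replicates 1 to 3 and 109, 58.3 and 56.2 in Normal replicates 1 to 3 (log2 change 3.83, SE 0.37, limma adjusted p = 0.0005). Every PVR library was far above every Normal library, with PVR replicate 1 highest. Among glial markers in the same libraries 1 of 6 tested was higher (Dkk3). The list summed to 187229, 141359 and 131002 in PVR replicates 1 to 3 and 145347, 145085 and 148462 in Normal replicates 1 to 3. In it, Gfap was at 50.9 ± 56.7 in PVR and 18.3 ± 4.60 in Normal (SD, n = 3 each). Aqp4 was at 4.12, 29.6 and 4.72 in PVR and 0, 95.4 and 2.72 in Normal. Gfap and Aqp4 made up very little of the list sums, which therefore describe other genes of the list. Of 6 tested Schwann cell and melanocyte markers 3 were higher and 2 lower. The part of glial cells in the change of Bcan was not tested. Vcan, which encodes versican, had 201, 589 and 247 in PVR and 101, 336 and 70.7 in Normal. Replicate 2 was the highest library in both groups, which widened the spread, and Vcan was not called (log2 change 1.19, SE 0.72, limma adjusted p = 0.272). It passed with the replicate number as a block (adjusted p = 0.0023) and without Normal replicate 2 (adjusted p = 0.0307). Ncan, which encodes neurocan, had 18, 11 and 10 reads in PVR and 1, 2 and 5 in Normal, and Acan, which encodes the cartilage proteoglycan aggrecan, had at most 4 reads in any library, so neither was tested.

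Srgn and Cspg4 are core proteins of particular cell types. Srgn encodes serglycin, the proteoglycan of storage granules in blood cells (chromosome 10, 62493833 to 62527451). It had 1095, 993 and 468 normalised counts in PVR replicates 1 to 3 and 83.5, 87.1 and 20.8 in Normal replicates 1 to 3 (log2 change 3.87, SE 0.67, limma adjusted p = 0.00961). PVR replicate 3 and Normal replicate 3 were the lowest of their groups. The macrophage marker sum was lowest in PVR replicate 3 among PVR libraries (36029) and highest in Normal replicate 3 among Normal libraries (12141). Most of each Normal sum was Csf1r, which was lower in PVR, so the order of the Normal sums does not describe the other markers. Among PVR libraries the sum was highest in replicate 2 (89792), while Srgn was highest in replicate 1. The part of macrophages in the change of Srgn was not tested. Cspg4 encodes NG2, a chondroitin sulfate proteoglycan of pericytes and glial precursors, and had 1012, 859.9 and 1237 in PVR and 1285, 1232 and 1887 in Normal. It was not called (log2 change -0.49, 95% interval -0.93 to -0.06, limma adjusted p = 0.0854) but was lower under 4 of 17 alternatives, among them the replicate number as a block (adjusted p = 0.0057). Of 7 tested pericyte and smooth muscle markers 2 were higher and none lower in the same libraries.

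For hyaluronan, 1 of 3 synthase genes and both receptor genes were higher, against 17.9% of all genes tested. Has2 and Hmmr passed the filter on low counts through their PVR libraries alone, which tilts their direction as above. Without them, 0 of 2 synthase genes and 1 of 1 receptor genes were higher. Has2, the synthase most tied to tissue remodelling, had 145, 124 and 83.1 normalised counts in PVR replicates 1 to 3 and 23.7, 28.7 and 4.53 in Normal replicates 1 to 3, the last resting on 5 reads (log2 change 2.86, SE 0.62, limma adjusted p = 0.0104). Has1 had 585, 232 and 243 in PVR and 154, 256 and 82.5 in Normal, overlapping groups, and was called by DESeq2 only (adjusted p = 0.0271). Has3 averaged 28.1 ± 11.6 in PVR and 39.5 ± 6.83 in Normal (SD, n = 3 each) and was not called. Per kilobase of exon, the Has2 to Has3 ratio was 5.31, 9.65 and 5.30 in PVR replicates 1 to 3 and 0.805, 1.01 and 0.215 in Normal replicates 1 to 3, while Has1 kept the largest share in every library.

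Cd44 encodes the main hyaluronan receptor of leukocytes and mesenchymal cells (chromosome 2, 102811141 to 102901665). It had 2503, 2008 and 932 normalised counts in PVR replicates 1 to 3 and 104, 298 and 136 in Normal replicates 1 to 3 (log2 change 3.36, SE 0.54, limma adjusted p = 0.00772). Every PVR library was above every Normal library. PVR replicate 3 was lowest of its group for Cd44 and for the macrophage marker sum. PVR replicate 1 was highest for Cd44, and PVR replicate 2 for the sum. In Normal, replicate 2 was highest for Cd44 and lowest for the sum. Csf1r, which was lower in PVR, made up most of each Normal sum, so that order does not describe the other markers. The part of macrophages in the change of Cd44 was not tested. Hmmr encodes a hyaluronan-binding protein that also sits on the mitotic spindle, and was counted with 56, 94 and 39 reads in PVR replicates 1 to 3, against 4, 1 and 1 in the Normal libraries (log2 change 4.55, SE 0.58, limma adjusted p = 0.000466). In the same libraries 7 of 10 cell cycle genes were higher and 1 was lower. Mki67, for example, was at 309, 519 and 201 normalised counts in PVR and 19.6, 35.2 and 9.06 in Normal. PVR replicate 2 was highest for both Hmmr and Mki67. The part of dividing cells in the change of Hmmr was not tested.

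Levels between members are compared per kilobase of exon. In PVR the order began with Sdc4 (3343 ± 1254 normalised counts per kilobase, SD, n = 3), Gpc3 (2041 ± 48.3), Sulf1 (1420.1 ± 82.6), Bgn (859.9 ± 123) and Sdc2 (835 ± 19.3). In Normal it began with Gpc3 (2339 ± 310.1), Sdc4 (2244 ± 287), Sulf1 (1365 ± 92.2), Sdc2 (1067 ± 148) and Ogn (622 ± 72.6). The values of Bgn and Sdc2 in PVR, and of Gpc3 and Sdc4 in Normal, differed by less than their spread. Sulf2 stood at place 7 of 44 in PVR (624 ± 108) and 35 of 44 in Normal (8.39 ± 2.57). The least abundant members per kilobase were Acan, Ncan and Gpc2 in PVR, and Ncan, Hmmr and Acan in Normal. These places depend on the exon length used. With the longest transcript of each gene, PVR began with Sdc4 (3464), Sulf1 (2865) and Gpc3 (2478). Bgn (1967 ± 282) then stood far above Sdc2 (835 ± 19.3) in PVR. Normal began with Gpc3 (2839), Sulf1 (2755) and Sdc4 (2325) by that length.

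The wider pathway was followed through 96 further genes in 7 lists, of which 92 were in the tables and 74 were tested; 24 were higher and 7 lower in PVR, against 17.9% and 12.9% of all genes tested. Of the 74, 8 passed the filter on low counts through their PVR libraries alone and 1 through its Normal libraries alone, which tilts their direction as above, and among the other 65 genes 22 were higher. None of 5 further linker enzyme genes and none of 6 tested further heparan sulfate synthesis genes was called, and the glucuronyl epimerase gene Glce, for example, averaged 362 ± 50.5 normalised counts in PVR and 322 ± 17.8 in Normal (SD, n = 3 each). Beside this 0 of 11, 3 genes had an unadjusted p under 0.05 (B3gat3, Hs3st3b1 and Hs6st3), and edgeR and DESeq2 called 0. Chondroitin and dermatan sulfate synthesis genes were higher in 5 of 12 tested cases and lower in none, and in 4 of 9 without the genes that passed through PVR alone. Chpf, a chondroitin polymerising factor, averaged 1631 ± 137 in PVR and 908 ± 99.5 in Normal, its relative Chpf2 628 ± 66.7 in PVR and 348 ± 59.04 in Normal, and the sulfotransferase gene Chst12 94.2 ± 35.97 in PVR and 29.8 ± 0.152 in Normal. Chpf2 shares 44.1% of its exon bases with Smarcd3 on the opposite strand and is uncertain to that extent. Of 9 genes that supply sugar and sulfate donors, 1 was higher and 1 lower. Ugp2 was higher (883 ± 39.01 in PVR and 717 ± 41.3 in Normal, limma adjusted p = 0.049). The replicate number as a block ended the call of Ugp2 (adjusted p = 0.0568), which was made under 5 of 17 alternatives. In the same list Papss1, a synthase of the sulfate donor, was lower (1751 ± 158 in PVR and 2267 ± 155 in Normal, limma adjusted p = 0.0251). That call was made under 13 of 17 alternatives.

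**Figure D4:**
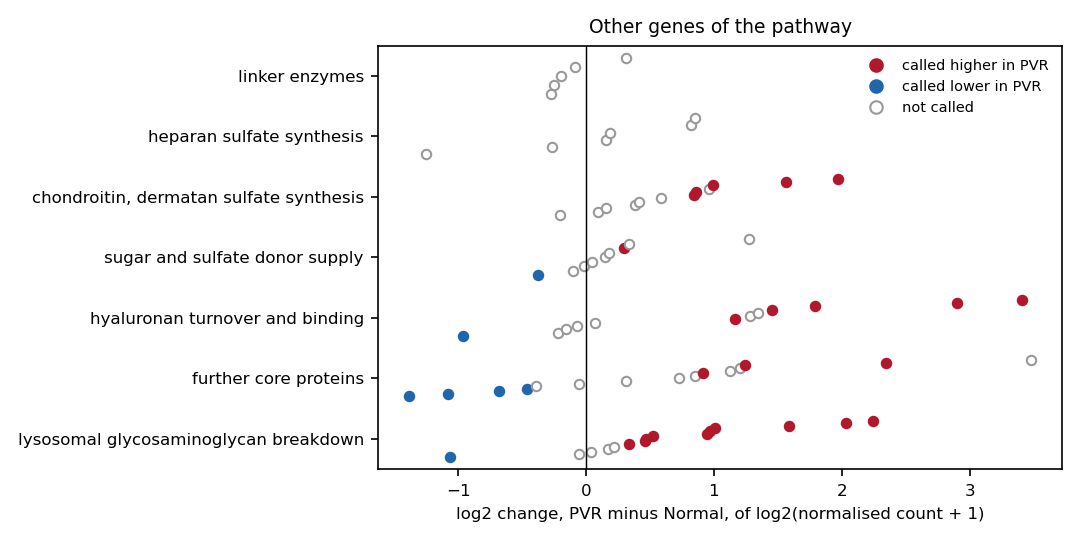
Log2 change (PVR minus Normal, of log2(normalised count + 1), horizontal axis) of the 74 tested genes of the wider pathway, 1 point per gene, in 7 lists down the page. Red marks 24 genes called higher, blue 7 called lower and open grey 43 not called, and the linker and heparan sulfate synthesis lists hold no called gene.

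Hyaluronan turnover and binding genes were higher in 5 of 12 tested cases and lower in 1, against 17.9% and 12.9% of all genes tested. Without Cemip, Lyve1 and Itih2, which passed the filter through PVR alone, 4 of 9 were higher, and the median log2 change of the list was 0.068, against 1.22 with them. Itih2 and Itih5 encode heavy chains that can be linked to hyaluronan; Itih2 averaged 45.1 ± 17.8 normalised counts in PVR and 5.16 ± 2.27 in Normal, and Itih5 227 ± 84.7 in PVR and 63.6 ± 21.5 in Normal (SD, n = 3 each). Stab1, a scavenger receptor gene of macrophages and sinusoidal endothelium, averaged 2519 ± 1799 in PVR and 212 ± 82.6 in Normal, whereas its relative Stab2 was lower (58.1 ± 14.3 in PVR and 112 ± 17.4 in Normal, limma adjusted p = 0.0197). The hyaluronidase genes Hyal1, Hyal2 and Hyal3 were not called. Further core protein genes were higher in 3 of 15 tested cases (Chadl, Podn and Col15a1) and lower in 4 (among them Spock1, Nyx and Spock2). The testican gene Spock1 averaged 3255 ± 406 in PVR and 5243 ± 839 in Normal (log2 change -0.68, limma adjusted p = 0.00544), and Col15a1, the core protein gene of a basement membrane collagen proteoglycan, averaged 106 ± 33.4 in PVR and 21.1 ± 11.5 in Normal (log2 change 2.35, limma adjusted p = 0.00204).

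Genes of lysosomal glycosaminoglycan breakdown were the list with the most calls, 10 of 15 higher and 1 lower. Over all genes tested 17.9% were higher and 12.9% lower. Galns, a sulfatase for keratan and chondroitin sulfate, averaged 508 ± 148 normalised counts in PVR and 121 ± 15.3 in Normal (log2 change 2.03, limma adjusted p = 0.000175). Glb1, the lysosomal beta-galactosidase, averaged 2328 ± 182 in PVR and 1162 ± 156 in Normal, and Naglu, a glucosaminidase of heparan sulfate breakdown, 2368 ± 293 in PVR and 1209 ± 132 in Normal (SD, n = 3 each). Arsg, a lysosomal sulfatase that also acts on heparan sulfate, was lower, with 1036, 974.9 and 1333 in PVR replicates 1 to 3 and 2175, 2338 and 2415 in Normal replicates 1 to 3 (log2 change -1.06, SE 0.13, limma adjusted p = 0.000373). Idua and Ids, which encode the enzymes that act on iduronate, were not called, with 95% intervals of the log2 change of -0.32 to 0.22 and -0.28 to 0.37. Macrophages are rich in lysosomal enzymes, their markers rose in the same libraries, and their part in these changes was not tested.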

How the data were processed

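RNA of primary RPE cells, purified with TRIzol and enriched for polyA per the labels' protocols, was sequenced in 3 PVR and 3 Normal libraries. The deposited values are a signal of normalised counts: the authors divided read counts per gene by a size factor per library, as seen from the values, since 100% of them became whole reads (within 0.01 reads) when multiplied back. The submitters' processing notes name DESeq2 and mm10 without a role; which aligner and counter were run, and whether strand was used, is not given in the sources used here, per the labels. The 3-read floor of a library is 2.72 to 3.42 normalised counts, covering counting error only.

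Genes passing filterByExpr (edgeR 4.0.16, minimum count 10) on the recovered reads were tested with limma 3.58.1 (trend and robust moderation, R 4.3.3) on log2(normalised count + 1), PVR minus Normal, with Benjamini-Hochberg adjustment over 15766 genes and a threshold of 0.05. The script was tested on simulated data. Alternatives included edgeR's quasi-likelihood test, DESeq2 1.42.0 and limma-voom on the recovered reads, other scalings, pseudocounts and filters, left-out libraries, and the replicate number as a block. Same-numbered PVR and Normal libraries deviated together (correlations of deviations 0.206, 0.195 and 0.179 for numbers 1, 2 and 3). The main test did not use this pairing, and the number entered only as the block among the alternatives. The pairing comes from the data, as the labels do not say what a number shares. Exon lengths and coordinates came from GENCODE on GRCm38, and promoters from RefSeq. The members and gene lists were chosen with earlier results of these data known. Every called member is named, with up to 3 genes per direction of each pathway list by smallest p; Glce, Hyal1, Hyal2, Hyal3, Idua, Ids and Col18a1 were added as uncalled examples after their values were seen. Date-like symbols made by a spreadsheet (26 rows, 0.102% of reads) name no gene with certainty and were not interpreted.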

Additional observations from a re-analysis of the deposited data

How the results depend on the processing

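Of the 22 members called higher, 18 were called under all 17 alternatives, and none of the 22 changed direction (the exceptions in call were Dcn, Aspn, Gpc4 and Hs6st2). The number of members called higher was 20 with scaling to library totals, 21 with edgeR and 24 with DESeq2 or the replicate block, and 18 to 26 when a library was left out. Members called lower, all of them core protein genes, numbered 2 with scaling to library totals and with the replicate block, 1 with TMM scaling, edgeR, DESeq2, limma-voom, a pseudocount of 5, no filter, a filter at 1 CPM in 3 libraries, and without Normal replicate 2 and PVR replicate 3 together, and 0 to 1 when a library was left out. The block also called Hs3st1 and Vcan higher and Sdc2 and Cspg4 lower, and changed no other call among the members. Other pathway genes called lower numbered 4 to 7 when a library was left out, against 7 otherwise and 8 with scaling to library totals. Signs reversed among uncalled members near 0. Omd was -0.0677 with scaling to library totals, -0.000544 with TMM scaling, -0.0103 with edgeR, -0.00495 with DESeq2, and -0.193 to 0.244 when a library was left out. Sulf1 was -0.0170 and Xylt1 -0.0171 with scaling to library totals. With libraries left out, Fmod ranged from -0.0146 (without Normal replicate 1) to 0.418, and Ext2 from -0.163 (without Normal replicate 2 and PVR replicate 3) to 0.0638 (without Normal replicate 3). Scaling to library totals moved the median log2 change of all genes to -0.09, against -0.02. The causes were not tested. Members with few reads (Hs3st1, Hs6st2, Hmmr, Ncan, Acan and Gpc2) are limited by depth.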

Other observations

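Optc, which encodes opticin, a small leucine-rich proteoglycan of the vitreous, was picked out after its values were seen. It had 2.06, 6.83 and 10.4 normalised counts in PVR replicates 1 to 3 and 2.06, 842 and 7.25 in Normal replicates 1 to 3, so that nearly all of its reads came from Normal replicate 2. The same library was the highest of its group for the glial marker Aqp4 (95.4 normalised counts, against 0 and 2.72 in Normal replicates 1 and 3) and for Vcan and Prelp, whose calls depend on it.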
